A study of Mus musculus with 23 samples.

Results

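The aryl hydrocarbon receptor (AhR) pathway was examined in the lungs of adult mice through 8 genes: the receptor Ahr, its partner Arnt, the feedback repressors Ahrr and Tiparp, and the target genes Cyp1a1, Cyp1b1, Nqo1 and Aldh3a1. They were taken by symbol from a table of 35322 genes, in which each of the 8 was listed and each passed the filter on low values that left 16795 genes for testing. The libraries came from 23 offspring aged 13 weeks of the Balb/c strain in 4 groups, 7 Sham, 7 PM, 5 Sham-OVA and 4 PM-OVA. Dams of the PM and PM-OVA offspring were given PM2.5, fine airborne particles, into the nose before mating, in gestation and until weaning, and dams of the Sham and Sham-OVA offspring were given saline. Sham-OVA and PM-OVA offspring were sensitised to ovalbumin (OVA) in alum and then challenged with nebulised OVA to induce allergic airway disease (AAD), and the Sham and PM offspring received nebulised saline, named PBS in the labels. All lungs were taken after lung function testing with methacholine, so this exposure is common to the 4 groups. No offspring was itself dosed with particles, and which offspring shared a dam is not given in the sources used here, so the p-values measure the spread between libraries. The samples were described as female lung, from the right lower lobe in the methods and with the abbreviation RML in the labels. Sham replicate 1 went against that sex, with 0.289 RPM of Xist and 54.0 RPM of the Y-linked Eif2s3y, and no other library held Eif2s3y.

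AhR is a transcription factor of the bHLH-PAS family that waits in the cytoplasm in a complex with Hsp90 chaperones. Polycyclic aromatic hydrocarbons, which are carried by combustion particles, and several products of tryptophan are its ligands. Once a ligand binds, AhR enters the nucleus, pairs with Arnt and binds DNA at elements with the core GCGTG, which switches on detoxifying enzymes and the proteins that shut the receptor down again. In the lung the pathway is best known for the induction of Cyp1a1 by smoke and soot in endothelium and epithelium, and for its part in barrier immunity.

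Values were RPM, read counts that the authors scaled by library size with no correction for gene length, and nearly all stood for a whole number of reads. The saline-challenged libraries held 13089691 to 17393579 reads on genes and the OVA libraries 2298645 to 12355561, so that depth moved with the challenge. So did the RPM that the listed genes took in sum, at 830188 to 924025 in the saline groups and 714175 to 857179 in the OVA groups. The value of 1 read was at most 0.0688 RPM in the saline groups and up to 0.311 RPM in Sham-OVA replicate 3. Lung identity was plain in each library, with 8 alveolar type 2 markers summing to at least 12704 RPM. Liver markers, 8 in all, reached 181 RPM (Sham replicate 4) and 59.4 RPM (PM replicate 4) in sum and stayed at or below 19.4 RPM elsewhere.

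Ahr lies on the minus strand of chromosome 12 (GRCm38, 35497974 to 35535038), Arnt on the plus strand of chromosome 3 (95434388 to 95497240), Ahrr on the minus strand of chromosome 13 (74211118 to 74292331) and Tiparp on the plus strand of chromosome 3 (65528410 to 65555518). Of the target genes, Cyp1a1 lies on the plus strand of chromosome 9 (57687928 to 57703824), Cyp1b1 on the minus strand of chromosome 17 (79701537 to 79715061), Nqo1 on the minus strand of chromosome 8 (107388225 to 107403206) and Aldh3a1 on the plus strand of chromosome 11 (61207537 to 61218421). Tiparp overlaps an antisense pseudogene, 4931440P22Rik, Ahr a noncoding RNA, Gm48236, and Arnt a processed pseudogene, Gm42672. These overlaps are of whole gene spans, and shared exons were not looked for. Gm42672 lies on the same strand as Arnt. Whether strand was used in counting is not given in the sources used here, so how far reads were shared with these neighbours is not known.

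The sequence that the receptor and Arnt recognise was looked for in the 250 bases before the start site of each gene, using the RefSeq promoter table (GRCm38.p6), which held 6 of the 8 genes and not Ahr or Aldh3a1. GCGTG on either strand, read as GCGTG or CACGC, was found in 5 of the 6, and in 28.2% of all 32851 windows of this length. The windows of the 2 cytochrome P450 genes and of the 2 feedback repressors are shown, since Cyp1b1 was called lower after challenge and Cyp1a1 was not, and the repressors close the feedback loop of the receptor. They run 5′ to 3′ on the strand of the gene, with the core in capitals. Start sites are those of RefSeq, and for Cyp1a1 that site lies inside the gene span given above, downstream of its first base, and for Tiparp slightly so.
Cyp1a1 (plus strand, chr9:57697363-57697612): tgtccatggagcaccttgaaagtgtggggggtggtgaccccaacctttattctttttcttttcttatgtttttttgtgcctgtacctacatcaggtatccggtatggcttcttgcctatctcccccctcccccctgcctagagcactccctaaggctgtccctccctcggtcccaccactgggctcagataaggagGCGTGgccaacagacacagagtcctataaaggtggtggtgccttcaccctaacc
Cyp1b1 (minus strand, chr17:79715062-79715311): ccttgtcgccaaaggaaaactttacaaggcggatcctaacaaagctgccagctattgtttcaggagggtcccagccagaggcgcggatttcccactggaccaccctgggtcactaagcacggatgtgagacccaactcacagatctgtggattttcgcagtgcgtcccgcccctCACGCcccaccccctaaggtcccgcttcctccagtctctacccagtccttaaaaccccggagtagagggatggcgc
Ahrr (minus strand, chr13:74292332-74292581): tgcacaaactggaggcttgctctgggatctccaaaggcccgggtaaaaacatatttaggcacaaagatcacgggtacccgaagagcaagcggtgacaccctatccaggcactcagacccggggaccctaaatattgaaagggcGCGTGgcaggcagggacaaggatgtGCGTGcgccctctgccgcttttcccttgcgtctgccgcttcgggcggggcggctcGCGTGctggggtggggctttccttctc
Tiparp (plus strand, chr3:65528197-65528446): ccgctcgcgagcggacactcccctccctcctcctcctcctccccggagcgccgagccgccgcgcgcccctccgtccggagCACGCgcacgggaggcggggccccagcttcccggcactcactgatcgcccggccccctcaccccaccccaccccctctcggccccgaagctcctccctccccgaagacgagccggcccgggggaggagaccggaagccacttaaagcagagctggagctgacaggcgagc
The core began 54 bases before the start site of Cyp1a1 and, as CACGC, 76 bases before that of Cyp1b1 and 170 before that of Tiparp. Ahrr held it 3 times, at 107, 82 and 27 bases before its start site, and 2.77% of all windows held it at least 3 times. Arnt held it 29 bases before its start site. No match lay in the window of Nqo1. The longer form TNGCGTG, on either strand, was found in the window of Ahrr alone among the 6 and in 4.10% of all windows. A match is a description of the letters and not a bound site, and elements that lie further away are not covered by these windows.

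In saline-challenged lung the receptor was among the more abundant transcripts of the pathway and its dedicated repressor was close to the limit of detection. Per kilobase of annotated exon, Sham lung held 19.2 ± 4.68 RPM of Ahr (SD, n = 7), 17.1 ± 3.00 of Tiparp, 12.1 ± 1.05 of Arnt and 11.5 ± 3.68 of Cyp1a1. Lower levels were found for Aldh3a1 (4.66 ± 1.89 RPM per kilobase), Nqo1 (3.49 ± 0.77), Cyp1b1 (1.79 ± 0.41) and Ahrr (0.059 ± 0.045). In this order Ahr and Tiparp, Arnt and Cyp1a1, and Aldh3a1 and Nqo1 differed by less than the sum of their SDs, and the other neighbours by more. PM lung held the same genes at the top, with Ahr at 22.0 ± 6.25 RPM per kilobase (SD, n = 7), Tiparp at 16.9 ± 0.83, Cyp1a1 at 15.3 ± 7.33 and Arnt at 11.7 ± 0.43. After OVA challenge the highest mean per kilobase was that of Cyp1a1, at 16.0 ± 5.87 (n = 5) against 9.29 ± 4.14 for Ahr in Sham-OVA and at 10.7 ± 2.95 (n = 4) against 8.88 ± 3.66 for Ahr in PM-OVA. Levels per kilobase are descriptions, and the differences between genes were not tested.

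**Figure D1:**
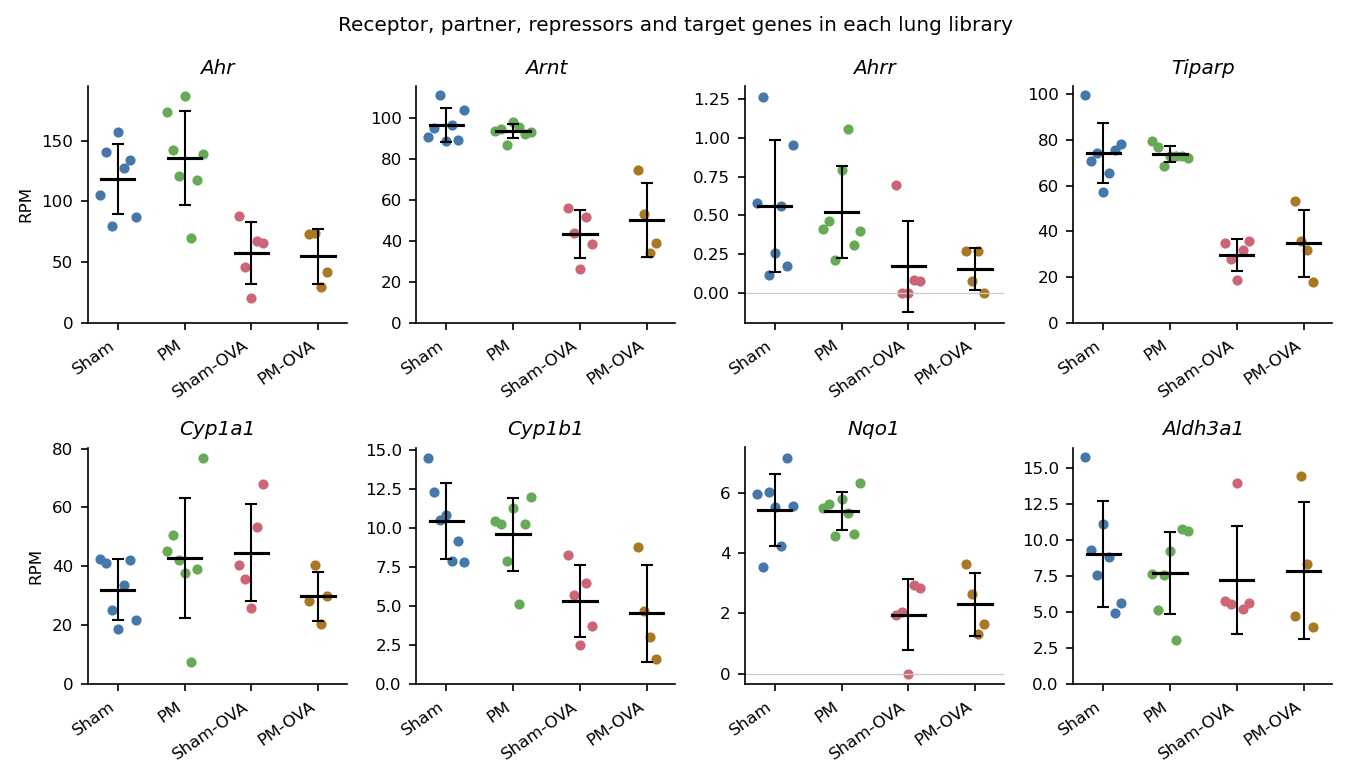
RPM of the 8 genes of the AhR pathway in each lung library (points), by group, with the mean (bar) and SD (whiskers) over 7 Sham, 7 PM, 5 Sham-OVA and 4 PM-OVA libraries; each panel has its own linear axis. Every OVA library lies below every library of its saline group for Arnt, Tiparp and Nqo1, whereas for Cyp1a1 and Aldh3a1 the groups overlap, with the lowest Cyp1a1 value, 7.69 RPM, in PM replicate 5.

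OVA challenge was followed by lower transcript levels of the receptor, its partner and 3 of the 6 other genes in offspring of saline dams, and Cyp1a1 was not among the genes that fell. In Sham-OVA against Sham, 5 of the 8 genes fell (Ahr, Arnt, Tiparp, Cyp1b1 and Nqo1), 0 rose and 3 did not pass the test (limma on log2(RPM + 0.5), adjusted p under 0.05). Of all genes tested, 68.1% were called in this comparison, 47.5% lower and 20.6% higher. The median difference of the 8 was -1.07 on the log2 scale, beside -0.48 for all genes tested. Called genes were 69.8% lower in this fit and 50.4% lower with edgeR on the recovered reads, which brought the median of all genes to -0.05. Differences of members are therefore also given relative to the median of all genes in the limma fit. They were -0.68 for Ahr, -0.71 for Arnt, -0.84 for Tiparp, -0.50 for Cyp1b1 and -1.03 for Nqo1. In that order, 25.6%, 24.7%, 20.8%, 31.6% and 16.2% of the genes tested had a lower difference. At the stricter threshold of the study (log2 fold change beyond 1 in either direction, adjusted p under 0.000001) 0 of the 8 were called and 4.51% of all genes, 758 in number. That number depended on the fit and on 1 library: 4814 genes passed with DESeq2 and 0 of the 8, 4437 with array weights and among them Tiparp, and 3085 without Sham-OVA replicate 3 and among them Arnt and Tiparp.

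Ahr, the receptor, ranged from 79.4 to 157 RPM in the 7 Sham libraries, with a median of 128 RPM. In the 5 Sham-OVA libraries it was at 87.8, 45.7, 20.2, 67.0 and 65.4 RPM. Of these, 4 lay below every Sham library, and replicate 1 lay inside the Sham range. Mean Ahr fell from 119 ± 28.9 RPM (SD, n = 7) to 57.2 ± 25.5 RPM (n = 5), a log2 difference of -1.16 (SE 0.30, adjusted p = 0.00321) or -0.68 relative to the median of all genes. With edgeR it was -0.66 (adjusted p = 0.0132).
Arnt, which AhR needs in order to bind DNA and which also serves the hypoxia-inducible factors, spanned 88.8 to 111 RPM in Sham with a median of 95.1 RPM. The Sham-OVA libraries held 55.9, 43.9, 26.1, 51.9 and 38.7 RPM of Arnt, all below the Sham range. Its log2 difference of -1.19 (SE 0.17, adjusted p = 2.7e-05) was 2.28-fold, and 35% of all genes tested likewise had every Sham-OVA library below every Sham library.

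Both feedback repressors had lower means. Tiparp, a mono-ADP-ribosyltransferase that is induced by AhR and inactivates it, was at 57.3 to 99.6 RPM in Sham, with a median of 74.2 RPM. In Sham-OVA it was at 34.9, 28.0, 18.6, 32.0 and 35.9 RPM, below the Sham range in each library. The log2 difference of Tiparp was -1.32 (SE 0.18, adjusted p = 1.63e-05), or -0.84 relative to the median of all genes.
Ahrr, which competes with AhR for Arnt, was read only 2 to 20 times per Sham library, at 0.116 to 1.27 RPM. In Sham-OVA it had 10 reads in replicate 1, 1 read in each of replicates 4 and 5 and 0 reads in replicates 2 and 3. The difference of -0.65 (SE 0.30) had an adjusted p of 0.0661, and 3 reads in Sham-OVA replicate 3 would already be worth more RPM than the highest Sham-OVA value of 0.695 RPM. The call turned with single libraries, with adjusted p = 0.0130 without Sham-OVA replicate 1, 0.0357 without Sham replicate 3 and 0.0458 without Sham replicate 6.

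The target genes did not move as a block. Cyp1b1, a P450 of stromal and endothelial cells that oxidises hydrocarbons and oestrogens, was at 7.83 to 14.5 RPM in Sham with a median of 10.5 RPM. It was at 8.27, 5.72, 2.49, 6.45 and 3.72 RPM in Sham-OVA, with 4 of the 5 below every Sham library. Cyp1b1 fell by 0.98 on the log2 scale (SE 0.26, adjusted p = 0.00417), although the call was lost with quantile normalisation (-0.49, adjusted p = 0.0506).
Nqo1, a quinone reductase that AhR and NRF2 both induce, was at 3.55 to 7.15 RPM in Sham with a median of 5.57 RPM. In Sham-OVA it was at 1.95, 2.03, 0, 2.95 and 2.85 RPM, all below the Sham range. It fell by 1.51 on the log2 scale (SE 0.40, adjusted p = 0.00390), and by 1.00 without replicate 3, the shallowest library, in which it had 0 reads (adjusted p = 0.000269). Sham-OVA replicate 3 also stood apart in cell markers, with 429 RPM of heart muscle markers against 53.4 to 90.2 RPM in the other 4 Sham-OVA libraries and 1873 RPM of fibroblast markers against 4326 to 4959 RPM. The part of composition in its values was not tested.

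Cyp1a1, the P450 most closely tied to AhR activity, was at 18.7 to 42.5 RPM in Sham with a median of 33.6 RPM. The Sham-OVA libraries held 40.4, 35.9, 25.8, 53.4 and 67.9 RPM, of which 2 lay above every Sham library and none below. Its mean was 32.1 ± 10.3 RPM in Sham (SD, n = 7) and 44.7 ± 16.3 RPM in Sham-OVA (n = 5), and the difference of 0.46 (95% interval -0.11 to 1.02) had an adjusted p of 0.136. Relative to the median of all genes it was 0.94, and 78.5% of the genes tested had a lower difference. The call depended on the scaling: Cyp1a1 was higher with edgeR (0.90, adjusted p = 0.00320), DESeq2 (0.80, 0.00279), quantile normalisation (0.85, 0.00583), median-of-ratios scaling (0.82, 0.00692) and array weights (0.53, 0.0179), and without Sham-OVA replicate 3 (0.64, 0.0205).
Aldh3a1, an aldehyde dehydrogenase of airway epithelium, was at 4.94 to 15.8 RPM in Sham with a median of 8.86 RPM. Its Sham-OVA values were 5.77, 5.57, 14.0, 5.26 and 5.62 RPM, all inside the Sham range. The top of that range was Sham replicate 1, the library that went against the described sex, and no other Sham library exceeded 11.2 RPM. Sham replicate 1 was also the highest Sham library for Tiparp, Cyp1a1 and Cyp1b1. The difference of -0.32 (95% interval -0.96 to 0.32) had an adjusted p of 0.360, turned positive with edgeR (0.09) and passed the test without replicate 3, the library at 14.0 RPM (-0.57, adjusted p = 0.0441).

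**Figure D2:**
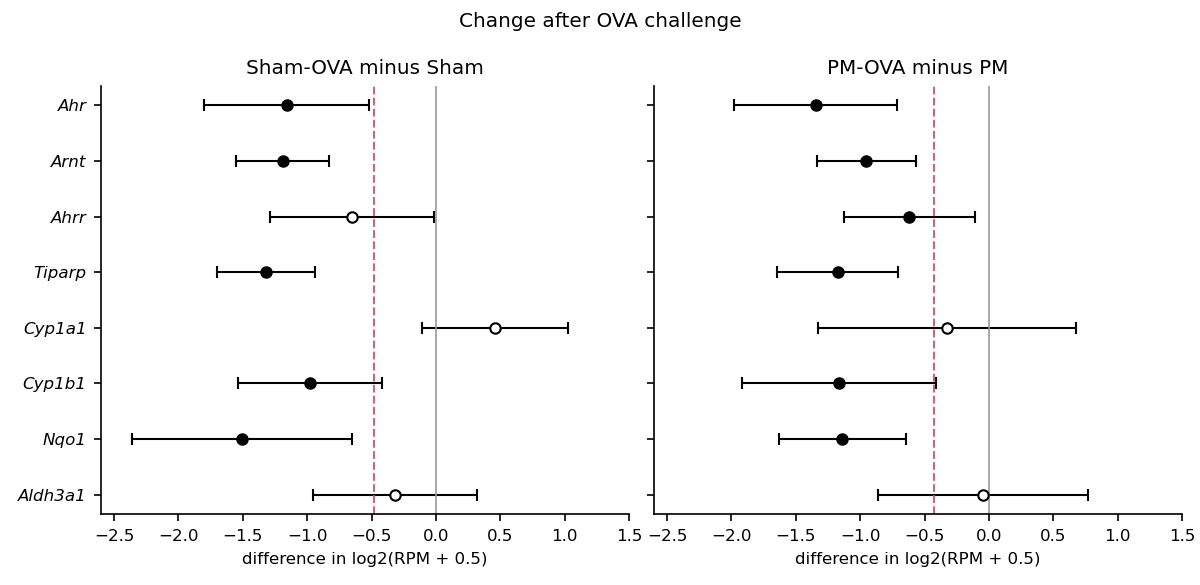
Difference in log2(RPM + 0.5) after OVA challenge for the 8 genes in offspring of saline dams (left) and of PM2.5-exposed dams (right), with 95% intervals from limma; filled points have an adjusted p under 0.05, the solid line marks 0 and the dashed line the median of all genes tested. Ahr, Arnt, Tiparp, Cyp1b1 and Nqo1 lie to the left of the dashed line in both panels, with Cyp1a1 at 0.46 and -0.33 to its right.

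In offspring of PM2.5-exposed dams the same 5 genes fell after OVA challenge, and Ahrr, near the floor, also passed the test. Its difference was -0.62, beside -0.65 (not called) in the Sham cohort, and its interaction term was 0.03 (95% interval -0.79 to 0.85). Of the 8 genes, 6 were lower in PM-OVA against PM, 0 were higher and 2 did not pass the test, beside 65.3% of all genes called, 45.2% lower and 20.1% higher. The median difference of the 8 was -1.05, and that of all genes -0.43. Called genes were 69.2% lower with limma and 49.9% lower with edgeR, which brought the median of all genes to -0.06. Relative to the limma median Ahr was at -0.92, Arnt at -0.52, Tiparp at -0.75, Cyp1b1 at -0.74, Nqo1 at -0.71 and Ahrr at -0.19. In that order, 18.2%, 30.0%, 22.9%, 23.1%, 23.9% and 42.5% of the genes tested had a lower difference. At the study's threshold 0 of the 8 and 0.286% of all genes, 48 in number, were called. With DESeq2 2817 genes passed and 0 of the 8, with array weights 2516 and among them Arnt, and without PM-OVA replicate 1 504 and 0 of the 8.

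Ahr was at 70.1 to 187 RPM in PM, with a median of 139 RPM. It was at 73.5, 74.1, 29.7 and 41.6 RPM in PM-OVA, so that PM replicate 5, the lowest of its group, was the only PM library to overlap the challenged libraries. Ahr fell by 1.35 on the log2 scale (SE 0.29, adjusted p = 0.00165), a 2.54-fold change. Arnt was tightly held in PM, at 87.1 to 98.2 RPM, and was at 74.7, 53.0, 34.3 and 39.2 RPM in PM-OVA, below the PM range in each library (-0.95, SE 0.18, adjusted p = 0.000655). The share of all genes with every PM-OVA library below every PM library was 28.6%.
Tiparp was at 68.8 to 79.8 RPM in PM and at 53.3, 35.8, 31.9 and 18.0 RPM in PM-OVA, again without overlap (-1.17, SE 0.22, adjusted p = 0.000611). Ahrr had 4 to 18 reads per PM library and 4, 1, 2 and 0 reads in the PM-OVA libraries. The difference of -0.62 (SE 0.23, adjusted p = 0.0337) was no longer called with edgeR or DESeq2 on the reads (adjusted p = 0.114 and 0.119). These tests take counting error into account. The call was also lost without PM replicate 5 (adjusted p = 0.0511 with limma).
Cyp1b1 was at 5.16 to 12.0 RPM in PM and at 8.80, 4.71, 3.05 and 1.63 RPM in PM-OVA, with 3 of the 4 below every PM library. It fell by 1.17 (SE 0.35, adjusted p = 0.0105) and missed the threshold with edgeR (-0.73, adjusted p = 0.0557). Nqo1 was at 4.57 to 6.32 RPM in PM and at 3.63, 2.63, 1.33 and 1.63 RPM in PM-OVA, with no overlap and a log2 difference of -1.14 (SE 0.23, adjusted p = 0.000973). PM-OVA replicates 3 and 4, the shallowest of the group, were its lowest libraries for Ahr, Arnt, Tiparp, Cyp1b1 and Nqo1.

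Cyp1a1 had the widest relative spread of the 7 members other than Ahrr in PM lung (coefficient of variation 47.7%), at 7.69 to 76.9 RPM with a median of 42.2 RPM. The PM-OVA values of 28.3, 40.6, 20.6 and 30.0 RPM lay inside that range. The difference of -0.33 had a 95% interval of -1.33 to 0.68 and an adjusted p of 0.549, and PM replicate 5 decided it. Without that library Cyp1a1 was lower in PM-OVA (-0.69, adjusted p = 0.0201), in a fit where the median of all genes was -0.42. That fit was not repeated under other scalings. With all libraries and other scalings Cyp1a1 lay at -0.15 (edgeR) to 0.07 (quantile normalisation). Aldh3a1 was at 3.05 to 10.8 RPM in PM and at 4.77, 14.5, 8.36 and 3.99 RPM in PM-OVA, with a difference of -0.04 (95% interval -0.86 to 0.77, adjusted p = 0.923) that was positive with edgeR (0.40).
PM replicate 5 stood apart in cell markers as well. Its 8 capillary endothelial markers summed to 1665 RPM against 4812 to 5639 RPM in the other 6 PM libraries, while its 8 fibroblast markers summed to 11120 RPM and its 8 alveolar type 2 markers to 29913 RPM, the highest of the PM group. Ahr, Cyp1a1, Cyp1b1 and Aldh3a1 were each lowest in this library among the PM libraries, and the part of cell composition in those values was not tested.

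Ahr, Arnt, Tiparp and Nqo1 stayed lower, with an adjusted p under 0.05, in both cohorts under each of the 11 alternative settings and without each library in turn. In tissue RNA fewer cells of a type and less RNA per cell cannot be told apart. Of 8 alveolar type 1 markers 7 were lower in each cohort, and 1 was higher in Sham-OVA. Their sums were 6464 to 9690 RPM in Sham, 8269 to 8965 in PM, 4079 to 5551 in Sham-OVA and 4943 to 5769 in PM-OVA. Fibroblast markers were lower for 3 and higher for 0 of 8 in each cohort, and alveolar type 2 markers lower for 2 and higher for 3. Multiciliated markers were lower for 1 and higher for 0 of 8 in Sham-OVA, and lower for 0 and higher for 5 in PM-OVA. The interaction of maternal exposure and challenge was called for 0 of all genes tested. Capillary endothelial markers were lower for 4 and higher for 2 of 8 in each cohort. Their sums were 2810 to 5920 RPM in Sham, 1665 to 5639 in PM, 3156 to 4021 in Sham-OVA and 3247 to 4619 in PM-OVA. The 1665 RPM were those of PM replicate 5. Every other PM library, at 4812 RPM or more, lay above every PM-OVA library. Interstitial macrophage markers were higher for 7 of 8 in Sham-OVA and 6 of 8 in PM-OVA. Plasma cell markers were higher for 6 and lower for 1 of 8 in each cohort, with sums of 365 to 570 RPM in Sham, 402 to 544 in PM, 7494 to 12715 in Sham-OVA and 6817 to 11144 in PM-OVA. Goblet cell markers were higher for 8 of 8 in each cohort, with sums of 5.87 to 17.6 RPM in Sham, 5.76 to 208 in PM, 816 to 2194 in Sham-OVA and 1383 to 5108 in PM-OVA. The part of these cells in the lower levels of the AhR genes was not tested.

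The levels of Cyp1a1 and of the receptor were also set against each other inside each library. A ratio of RPM values does not depend on how libraries are scaled, while the log2 ratios below are differences in log2(RPM + 0.5), in which the 0.5 leaves some dependence for low genes such as Cyp1b1. The ratios were chosen because these values had been seen to part, so they are given as a description with no test. Cyp1a1 per Ahr was 0.119 to 0.404 in the 7 Sham libraries, with a single RPM of Cyp1a1 for several of Ahr. In Sham-OVA it was 0.460, 0.785, 1.28, 0.797 and 1.04, above the Sham range in each library. The mean log2 ratio was higher by 1.62, or 3.07-fold, and by 1.43 to 1.83 without each library in turn.
Cyp1a1 per Ahr was 0.110 to 0.553 in PM and 0.385, 0.547, 0.692 and 0.721 in PM-OVA, of which 2 exceeded every PM library. The mean log2 ratio was higher by 1.02. Whether the cohorts differ in this change was not tested.

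The ratio of Cyp1a1 to its relative Cyp1b1 was described in the same way. Cyp1a1 per Cyp1b1 was 1.73 to 4.61 in Sham and 4.88, 6.28, 10.4, 8.27 and 18.2 in Sham-OVA, without overlap (difference in mean log2 ratio 1.44). In PM-OVA against PM the difference was 0.84. Per Ahr, the mean log2 ratio of Arnt differed by -0.03 and 0.39 in the Sham and PM cohorts, Tiparp by -0.16 and 0.17, Cyp1b1 by 0.18 and 0.18, Nqo1 by -0.35 and 0.21 and Aldh3a1 by 0.84 and 1.30. Ratios within a library show unequal change of 2 genes and not which of them changed.

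**Figure D3:**
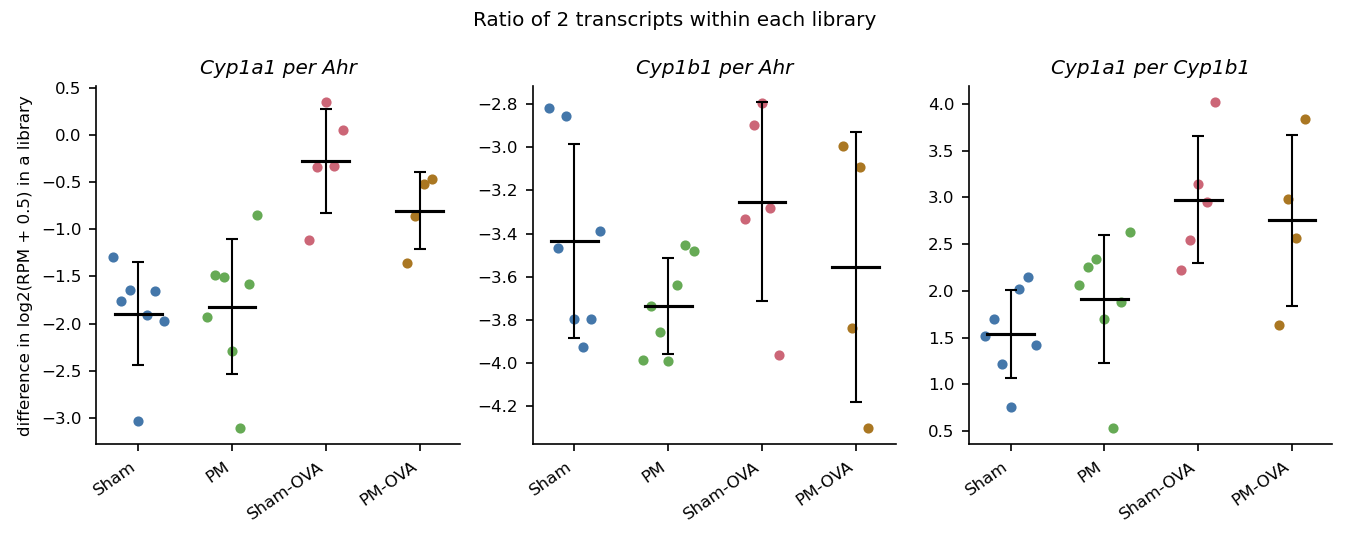
Difference in log2(RPM + 0.5) between 2 transcripts within each library for Cyp1a1 minus Ahr, Cyp1b1 minus Ahr and Cyp1a1 minus Cyp1b1, by group (points), with mean (bar) and SD (whiskers) over 7, 7, 5 and 4 libraries. The Sham-OVA points lie above all Sham points in the first and last panel, whereas Cyp1b1 minus Ahr overlaps in all 4 groups.

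Maternal PM2.5 exposure was compared without and with challenge, since the ligands of AhR include compounds that combustion particles can carry. The paper describes its particles by carbon and water-soluble ions, so whether they held AhR ligands is not given. Dosing of the dams ended at weaning and the lungs were taken at 13 weeks. A response at the time of exposure was therefore not measured. Of the 8 genes 0 differed between PM and Sham, and 0 of all 16778 genes tested did (percent called 0 with limma, edgeR and DESeq2; 704 genes, and 0 of the 8, had an unadjusted p under 0.05 with limma). Between PM-OVA and Sham-OVA 0 of the 8 differed, and percent called was 0 over 16747 genes (294 genes and 0 of the 8 at an unadjusted p under 0.05; 0 calls with edgeR and 1 with DESeq2).
In saline-challenged lung the intervals were narrowest for Arnt, Tiparp and Nqo1. The 95% interval of the log2 difference was -0.18 to 0.09 for Arnt, -0.19 to 0.20 for Tiparp and -0.28 to 0.30 for Nqo1. It was -0.50 to 0.24 for Cyp1b1, -0.24 to 0.58 for Ahr, -0.51 to 0.51 for Ahrr and -0.78 to 0.35 for Aldh3a1. Cyp1a1, the most inducible member, had a mean of 32.1 ± 10.3 RPM in Sham and 42.8 ± 20.4 RPM in PM (SD, n = 7 each) and an interval of -0.52 to 1.02. Without PM replicate 5 its difference was 0.61 (unadjusted p = 0.00894 and adjusted p = 0.748 with limma).
Among challenged lungs the intervals were wider, except that of Cyp1a1. Cyp1a1 was at 44.7 ± 16.3 RPM in Sham-OVA (SD, n = 5) and 29.9 ± 8.23 RPM in PM-OVA (n = 4), a difference of -0.54 (95% interval -1.20 to 0.13, adjusted p = 1.00), with every PM-OVA library inside or below the Sham-OVA range. The intervals ran from -0.44 to 0.83 for Arnt, from -0.96 to 0.94 for Ahr and from -0.87 to 1.64 for Nqo1.

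Whether the response to OVA differed between the cohorts was tested with the interaction of maternal exposure and challenge over all 23 libraries. It was called for 0 of the 8 genes, and percent called was 0 over 16795 genes with limma (854 genes and 0 of the 8 at an unadjusted p under 0.05; 0 calls with edgeR and 2 with DESeq2). The largest term among the 8 was that of Cyp1a1, -0.79 (95% interval -1.92 to 0.35, unadjusted p = 0.165), the difference between 0.46 in Sham and -0.33 in PM offspring. With array weights, which weigh libraries by their fit (0.0582 to 3.59), 4616 genes were called, among them Ahr (-0.95, adjusted p = 0.0436), and none of the other settings called any of the 8. The OVA comparisons and the maternal comparisons share libraries and are no independent evidence for each other.

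**Figure D4:**
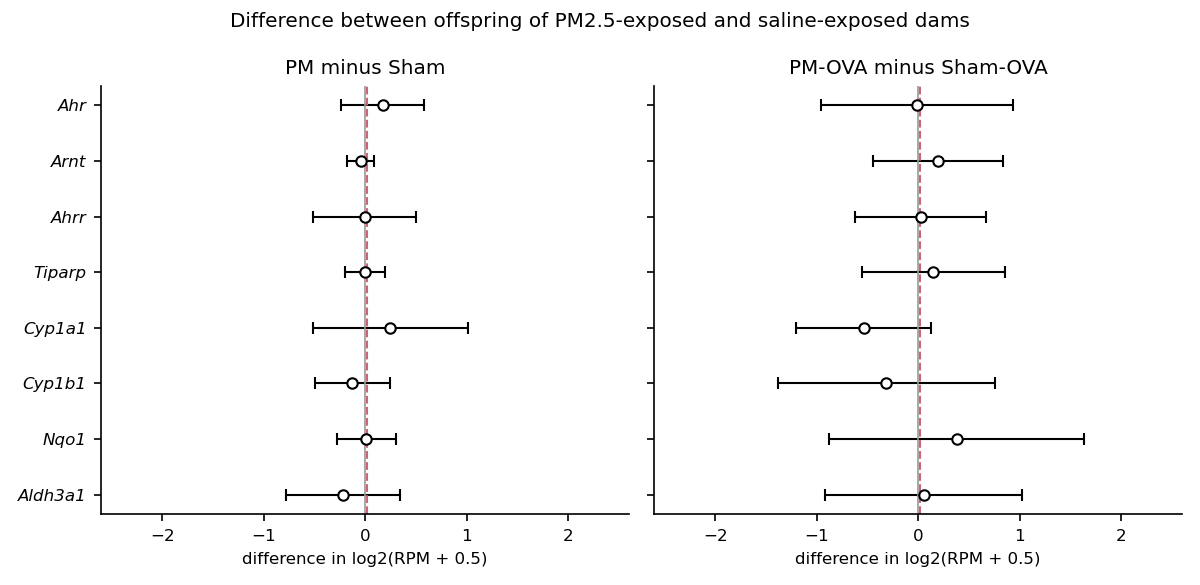
Difference in log2(RPM + 0.5) between offspring of PM2.5-exposed and saline dams for the 8 genes, without challenge (left, 7 against 7 libraries) and after OVA challenge (right, 4 against 5 libraries), with 95% intervals from limma; open points have an adjusted p of 0.05 or more and the dashed line marks the median of all genes. Each interval includes 0, and the intervals of the 7 members other than Cyp1a1 are wider on the right, while that of Cyp1a1 runs from -1.20 to 0.13 there.

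Variation between libraries of the same group was used to see which genes kept company with each member. Group means were taken off the log2 values, and all genes with a mean of at least 5 RPM were compared over the 23 libraries, as a description: the points share depth and cell composition. Among the genes that ran most closely with Ahr were Sqor, a mitochondrial sulfide oxidase (r = 0.94), and Selenop, a selenium carrier (0.94). Arnt ran with Capn7 (0.97), Pikfyve (0.96) and Dock10 (0.96), Tiparp with Robo1 (0.93), Prdm11 (0.92) and Proser1 (0.92), and Nqo1 with Cryzl1, Wdr35 and Rrn3 (0.93, 0.93 and 0.92). Cyp1a1 ran with Tspan18 (0.88), Pcdhac2 (0.87) and Prickle2 (0.86), and Cyp1b1 with Elf4, Cd2bp2 and Zc3h13 (0.88 each). Aldh3a1 ran with Aqp11, Ezh1 and Hepacam (0.74, 0.68 and 0.68), and Ahrr, near the floor, reached at most 0.62 (Col8a1).
Between members, 56 correlations were computed within the 7 Sham and the 7 PM libraries. With exact permutation tests 5 had an unadjusted p under 0.05 for Pearson's r and 0 after adjustment. Ahr and Cyp1a1 had r = 0.20 and rho = -0.04 in Sham (exact permutation p = 0.638 and 0.963, adjusted p = 0.920 and 0.999). In PM the pair had r = 0.78 and rho = 0.32 (exact permutation p = 0.0748 and 0.498, adjusted p = 0.414 and 0.871). Without the 2 libraries farthest from the median of Ahr, r was 0.26. Leaving them out also narrows the range of Ahr, so this cannot show whether the relation rests on those libraries.

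Other genes of the pathway were grouped by role in 7 lists, and they were described by counts in the same fits. In PM against Sham, PM-OVA against Sham-OVA and the interaction 0 genes of the 7 lists were called. Beside the counts stand 47.5% of all genes lower and 20.6% higher in Sham-OVA against Sham (median -0.48) and 45.2% and 20.1% in PM-OVA against PM (median -0.43). With edgeR, 5669 of all 16795 genes were lower and 5584 higher in Sham-OVA against Sham, and 5095 and 5120 in PM-OVA against PM. The list medians below followed the scaling, and their range over the main fit and its 11 alternatives is given beside them.

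The chaperones and coactivators had medians close to that of all genes. Of 12 genes of the receptor complex 3 rose and 7 fell in Sham-OVA, with a median of -0.41 (range -0.41 to 0.04), and 3 rose and 8 fell in PM-OVA, with a median of -0.44 (range -0.63 to -0.04). Ptges3 and Hsp90ab1, which help to hold AhR in the cytoplasm in a form that can bind ligand, rose in both cohorts. Ptges3, a cochaperone, rose from 24.1 ± 6.91 to 71.7 ± 15.4 RPM in the Sham cohort (log2 difference 1.57, adjusted p = 1.49e-05) and Hsp90ab1 by 1.19 (adjusted p = 0.000215). In PM-OVA they rose by 1.51 and 0.88. The largest falls were those of the coactivators Ep300 (-2.06 and -2.13 in the Sham and PM cohorts), Ncoa7 (-1.94 and -1.60) and Ncoa2 (-1.71 and -1.70).

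Among 9 tested bHLH-PAS relatives, 1 rose and 4 fell in each cohort, with medians of -0.19 (range -0.63 to 0.18) and -0.46 (range -0.87 to -0.01). The hypoxia factors, which also pair with Arnt, fell with it: Epas1 from 2735 ± 493 to 1360 ± 447 RPM in the Sham cohort (-1.07, adjusted p = 0.00172) and by 0.97 in the PM cohort, and Hif1a by 1.15 and 1.40. Hif3a fell in Sham-OVA (-1.86, adjusted p = 0.00433) and had -0.36 in PM-OVA (adjusted p = 0.497). The clock gene Arntl2 was the member that rose (0.71 and 1.16).

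Other genes that the receptor can induce showed no common direction. Of 11 tested, 3 rose and 3 fell in Sham-OVA (median -0.30, range -0.43 to 0.14), and 2 rose and 2 fell in PM-OVA (median -0.33, range -0.45 to 0.05). Scin, an actin-severing protein, rose from 0.70 ± 0.52 to 4.88 ± 2.75 RPM in the Sham cohort (2.11, adjusted p = 0.000153) and by 3.19 in the PM cohort, and the amino acid transporter Slc7a5, which also imports kynurenine, rose by 1.96 and 1.52. Nfe2l2, which encodes NRF2, fell by 1.14 and 1.06. Socs2 fell by 0.50 in Sham-OVA (adjusted p = 0.0345) and was not called with edgeR (adjusted p = 0.629).
Cyp1a2, the liver relative of Cyp1a1, and Il22, a cytokine whose gene AhR drives in lymphocytes, were too low to test. They were picked out here after their values had been seen. Il22 had 0 reads in all 23 libraries. Cyp1a2 was highest, at 2.09 RPM, in Sham replicate 4 and at 0.79 RPM in PM replicate 4, the libraries with the most liver marker RNA, and had 0 reads in the OVA libraries.

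Enzymes that turn tryptophan into ligands were the list with a positive median. Of 11 tested, 4 rose and 2 fell in Sham-OVA (median 0.35, range 0.24 to 1.01), and 3 rose and 1 fell in PM-OVA (median 0.17, range -0.25 to 0.61, so that its sign turned in some settings). Il4i1, an amino acid oxidase that yields indole and kynurenic ligands, rose from 4.18 ± 1.52 to 40.2 ± 24.1 RPM in the Sham cohort (3.00, adjusted p = 2.47e-06) and from 4.05 ± 0.77 to 26.6 ± 3.34 RPM in the PM cohort (2.59, adjusted p = 1.58e-06). Tdo2, which opens the kynurenine route, rose by 2.12 and 1.95. Kyat1, a kynurenine aminotransferase, rose by 0.49 and 0.87, and its relative Kyat3 fell by 0.69 in Sham-OVA (adjusted p = 0.0402), a call that was lost with edgeR (adjusted p = 0.379).

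NRF2 targets and regulators, which share Nqo1 with AhR, were called lower at a share close to that of all genes: 3 rose and 8 fell of 16 in Sham-OVA (median -0.76, range -0.78 to -0.30), and 2 rose and 8 fell in PM-OVA (median -0.64, range -0.88 to -0.20; 5 rose and 4 fell with edgeR). Gclm, a subunit of the glutathione-synthesising enzyme, fell by 1.85 and 1.69, and Osgin1 by 1.83 and 0.98. Gstp1 fell by 1.85 and 1.49 at levels of 2.11 ± 0.85 RPM in Sham, and as the gene has near-identical copies its reads are uncertain. The cystine transporter Slc7a11 rose by 1.99 and 1.32, and Me1, an NADPH source, by 1.94 and 1.67. Hmox1, the haem oxygenase of macrophages, rose by 0.98 in Sham-OVA (adjusted p = 0.00478) and had 0.37 in PM-OVA (adjusted p = 0.166).

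Xenobiotic enzymes of the lung that do not depend on AhR alone fell widely in the Sham cohort. Of 19 tested, 1 rose and 16 fell in Sham-OVA (median -0.92, range -0.92 to -0.36; 9 fell with edgeR), and 2 rose and 7 fell in PM-OVA (median -0.36, range -0.58 to 0.04). The flavin monooxygenase Fmo2 fell from 1421 ± 307 to 86.5 ± 42.6 RPM (-4.27, adjusted p = 5.42e-07) and by 3.50 in PM-OVA, Sult1d1 by 3.06 and 2.02, and Cyp2e1 by 2.40 and 2.24. The glutathione transferase Gsto1 rose by 0.66 and 1.31. Cyp2e1 was highest in the library with the most liver marker RNA, Sham replicate 4. The counts of the cohorts were not shown to differ, as the interaction was called for 0 of the 19 genes. Club cell markers, of a cell that holds many of these enzymes, were lower for 4 and higher for 2 of 8 in Sham-OVA and lower and higher for 3 each in PM-OVA, and their part in the list was not tested.

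Close relatives of the members lay close to all genes in share and median. Of 9 tested, 1 rose and 5 fell in Sham-OVA (median -0.51, range -0.56 to -0.05) and 0 rose and 5 fell in PM-OVA (median -0.52, range -0.72 to -0.13; 2 rose and 4 fell with edgeR). Aldh3a2, the housekeeping relative of Aldh3a1, fell by 1.70 and 1.86, Parp14 by 1.70 and 2.06, and Parp12, a mono-ADP-ribosyltransferase of the same class as Tiparp, by 1.05 and 0.92. Parp10 rose by 0.50 in Sham-OVA (adjusted p = 0.0111) and had 0.46 in PM-OVA (adjusted p = 0.0589).

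**Figure D5:**
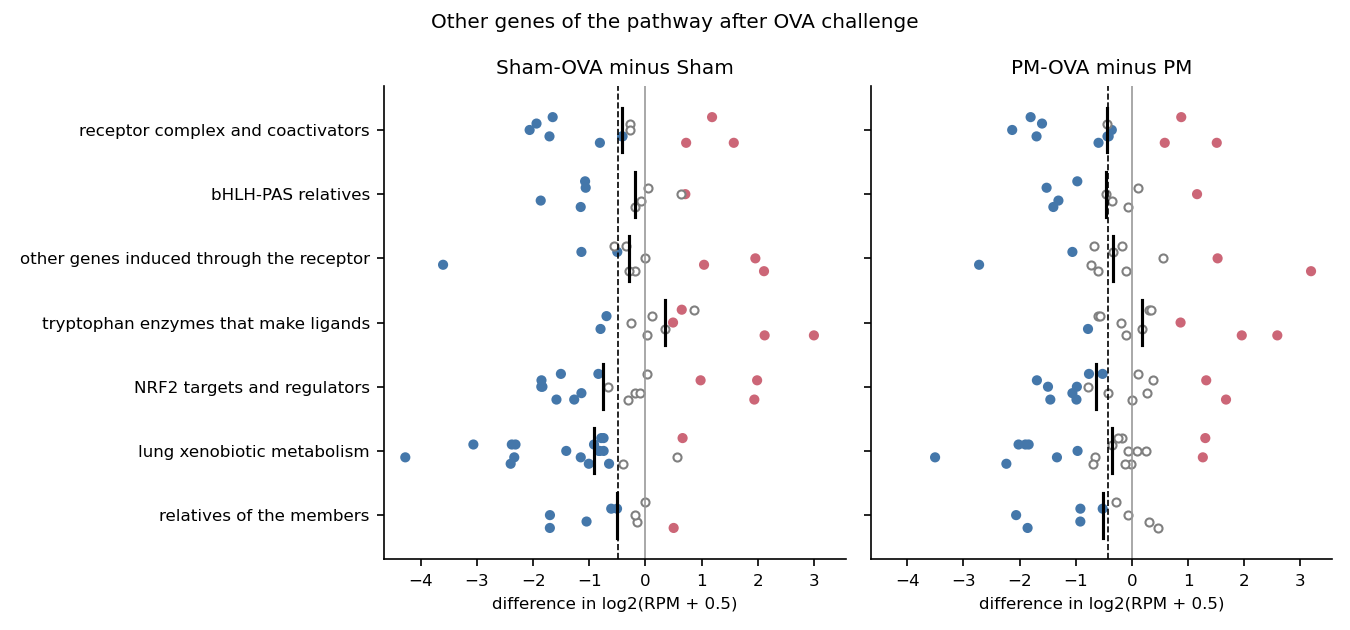
Difference in log2(RPM + 0.5) after OVA challenge for the tested genes of 7 pathway lists (points) in offspring of saline dams (left) and PM2.5-exposed dams (right); red and blue points rose and fell with an adjusted p under 0.05, open points did not pass, short bars are list medians and the dashed line is the median of all genes tested. The list of tryptophan enzymes has a median of 0.35 and 0.17, and lung xenobiotic metabolism has 16 genes called lower on the left and 7 on the right.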

How the data were processed

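RNA-Seq of lung from 23 offspring was analysed, with groups taken from the maternal exposure and challenge named in the labels. The methods name Trimmomatic for trimming, Bowtie2 for alignment (GRCm38) and SeqMonk for quantification by the authors; the submitters' processing notes also name bcl2fastq and mm10. The deposited values, named after RPKM by the authors, were RPM: in each library at least 99.9943% of them lay within 0.01 of a whole multiple of 1 read at any gene length, which gave the number of reads per gene. The tests had been planned for RPKM and also suit RPM. Of the table's columns of libraries 0 were left unused.

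Values were transformed to log2(RPM + 0.5), a scale that understates the change of low genes. The test was limma 3.58.1 (R 4.3.3, variance trend) on every gene that reached 0.5 RPM in 4 or more of the 23 libraries, fitted to the libraries of the 2 groups compared (all 23 for the interaction), with Benjamini-Hochberg adjustment over all genes tested. Genes with 0 reads in every library of a fit were dropped from it. Intervals are 95% intervals. Depths ranged from 2298645 to 17393579 reads on genes, and at 0 reads an expected count of up to 3 reads cannot be told from absence, for counting error only. Alternatives were pseudocounts of 0.1 and 1, no filter, a filter on a mean of 1 RPM, quantile normalisation, median-of-ratios scaling, array weights, edgeR 4.0.16 and DESeq2 1.42.0 on the recovered reads, replicate blocks, all 4 groups in one fit and leaving out each library. Replicate numbers are those of the sample titles. The within-library ratios, given with no test, and the pathway lists under these settings were added after seeing the data. The 8 genes and the lists were chosen with earlier results of these data known. From each list were named up to 3 genes called higher and 3 called lower in Sham-OVA against Sham with the largest differences and a mean of at least 1 RPM, and for each member the 3 genes most like it. Some genes that this rule names are not reported here. Coordinates are from the GENCODE annotation of GRCm38. The fits were tested on simulated data. Figures: matplotlib 3.10.9, Python 3.11.15. DNA methylation was not analysed here.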

Additional observations from a re-analysis of the deposited data

Results flagged for a closer look

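Dixon's test of the highest and the lowest library was applied to the 8 genes in each group, 32 cases in all, and 2 stood apart, where chance would set about 1 in 20 groups apart. Ahrr in Sham-OVA was at 0.695 RPM in replicate 1, from 10 reads, and at 0 to 0.0797 RPM in the other 4 libraries. Aldh3a1 in Sham-OVA was at 14.0 RPM in replicate 3, the shallowest library, from 45 reads, and at 5.26 to 5.77 RPM in the other 4.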

How the results depend on the processing

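Of 426 values of the 8 genes under other settings 374 kept their direction and their side of the threshold, 9 lost the call, 10 gained it and 33 turned sign, and of 552 without 1 library 481, 4, 6 and 61 did. The 5 and 6 genes called after OVA challenge in the Sham and PM cohorts became 4 to 6 under the other settings except array weights. With array weights 8 were called in the Sham cohort and 1 in the interaction, beside 12808 and 4616 of all 16795 genes. Leaving out 1 library gave 5 to 7 and 5 to 6, and 0 in the maternal comparisons and the interaction. Of all genes, 10914 to 12146 and 9592 to 12083 were then called in the Sham and PM cohorts. Sham-OVA replicate 3 decided the calls of Cyp1a1 and Aldh3a1 in the Sham cohort and PM replicate 5 that of Cyp1a1 in the PM cohort, and Ahrr turned with 3 single libraries in the Sham cohort and with 4 in the PM cohort, where it also lost its call under 7 settings. Cyp1a1 per Ahr differed by 1.43 to 1.83 and by 0.80 to 1.20 without 1 library. A filter on a mean of 1 RPM gave no value for Ahrr. The causes of these changes were not tested. Depth limits the low genes: 1 read was worth 0.311 RPM in Sham-OVA replicate 3, 0.182 RPM in PM-OVA replicate 4 and 0.133 RPM in PM-OVA replicate 3, against Ahrr values of at most 0.695 RPM in Sham-OVA. Shallow libraries were also low for abundant members. Sham-OVA replicate 3 was the lowest of its group for Ahr, Arnt, Tiparp, Cyp1a1, Cyp1b1 and Nqo1, and the highest for Aldh3a1. PM-OVA replicates 3 and 4 were the lowest of theirs for Ahr, Arnt, Tiparp, Cyp1b1 and Nqo1. The median-of-ratios factors of these libraries were 0.57, 0.73 and 0.71, against 1.02 to 1.17 in the saline groups. The part of depth in these values was not tested.

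Same-numbered libraries (numbers of the sample titles) did not deviate together throughout (correlations from -0.31 to 0.62 over the 4 comparisons). In 8 of the 23 libraries the library name holds another number than the title, and with those numbers the correlations ran from -0.63 to 0.29. Each library is of another animal, and nothing in the labels ties a number to a litter, batch or day. A replicate block by title number left 5 genes called in the Sham cohort and 5 in the PM cohort, where Ahrr was no longer called (adjusted p = 0.165), and of all genes 10025 and 7982 against 11431 and 10968.

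The values that turned sign belonged to differences that were not called. With quantile normalisation, median-of-ratios scaling, edgeR and DESeq2 in turn, Aldh3a1 was at 0.16, 0.034, 0.092 and 0.13 in Sham-OVA against Sham and at 0.43, 0.29, 0.40 and 0.40 in PM-OVA against PM, and Tiparp at -0.032, -0.011, -0.041 and -0.038 in PM against Sham. Cyp1a1 was at 0.069 and 0.031 with the first pair in PM-OVA against PM. In PM against Sham, Ahrr was at 0.065 with a pseudocount of 0.1 and 0.021 with quantile normalisation, Cyp1b1 at 0.024 with array weights, and Nqo1 at -0.00030, -0.031 and -0.028 with median-of-ratios scaling, edgeR and DESeq2. In PM-OVA against Sham-OVA, array weights, whose estimation stopped before it converged in this comparison, gave -0.13 for Arnt, -0.082 for Tiparp and -0.29 for Nqo1, edgeR -0.20 and DESeq2 -0.14 for Ahrr, DESeq2 -0.022 for Aldh3a1, and the replicate block 0.075 for Ahr, -0.0069 for Ahrr and -0.0036 for Aldh3a1. In the interaction, array weights gave -0.28 for Arnt, -0.23 for Tiparp and -0.72 for Nqo1, and edgeR -0.12 for Ahrr.

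Without 1 library the values that turned sign ranged as follows. Aldh3a1 ran from -0.38 to 0.20 in PM-OVA against PM. In PM against Sham the ranges were -0.12 to 0.14 for Ahrr, -0.056 to 0.076 for Tiparp, -0.19 to 0.0068 for Cyp1b1 and -0.074 to 0.079 for Nqo1. In PM-OVA against Sham-OVA they were -0.34 to 0.24 for Ahr, -0.015 to 0.36 for Arnt, -0.059 to 0.26 for Ahrr, -0.087 to 0.43 for Tiparp, -0.68 to 0.032 for Cyp1b1, -0.13 to 0.57 for Nqo1 and -0.28 to 0.31 for Aldh3a1. In the interaction they were -0.52 to 0.071 for Ahr, -0.11 to 0.26 for Ahrr, -0.090 to 0.42 for Tiparp, -0.55 to 0.16 for Cyp1b1, -0.14 to 0.56 for Nqo1 and -0.059 to 0.53 for Aldh3a1.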
